A study of Mus musculus with 8 samples.

Results

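The collagen crosslinking and hydroxylation enzymes described here are 10 genes, chosen by symbol from the 50600 genes of the count table. They are the lysyl oxidases *Lox*, *Loxl1*, *Loxl2*, *Loxl3* and *Loxl4*, the lysyl hydroxylases *Plod1*, *Plod2* and *Plod3*, and the catalytic alpha subunits of prolyl 4-hydroxylase *P4ha1* and *P4ha2*. All 10 were found once in the table and all 10 passed the filter on low counts. RNA was sequenced in bulk from 2 mouse malignant peripheral nerve sheath tumor (MPNST) cell lines, each treated for 24 h with vehicle (DMSO) or 100 nM capmatinib, a MET kinase inhibitor, with 2 libraries in each of the 4 groups. NF1-MET cells carry *Nf1* fl/ko, a lox-stop-loxMET transgene and Plp-creERT, so that Cre was driven by a promoter of Schwann lineage cells, and are labelled WT for *Trp53*. NF1-MET;sgP53 cells are the same line after transduction with a CRISPR-Cas9 lentivirus against *Trp53* and puromycin selection, and are labelled Trp53 KO. All groups therefore share the *Nf1* and MET alleles. A spontaneous deletion of *Cdkn2a* was reported by the study for the NF1-MET line, the parent of NF1-MET;sgP53. The study also describes an empty-vector control for this transduction, and the labels do not state in words whether the NF1-MET libraries came from it. Each genotype was 1 line, and its replicates were wells treated in duplicate, so anything else that distinguishes the lines cannot be told apart from p53 loss, and p-values measure only the spread between such wells.

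Fibrillar collagen is modified in steps. In the endoplasmic reticulum, prolyl 4-hydroxylases hydroxylate proline, which stabilizes the triple helix, and lysyl hydroxylases hydroxylate lysine, which sets the chemistry of later crosslinks. After secretion, the copper-dependent lysyl oxidases oxidize lysine and hydroxylysine in collagen and elastin to aldehydes that crosslink the fibers. MPNSTs arise in the Schwann cell lineage of peripheral nerve, where collagen surrounds axons and Schwann cells.

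The 8 libraries held 30116810 to 42781371 gene counts. The noncoding gene *Gm42418* took 1.11% to 13.1% of these counts, and the lowest share was in NF1-MET;sgP53 capmatinib replicate 2, where the other 7 held at least 3.16%. Its part in the results below was not tested beyond the fits without this gene and without this library. *Trp53* fell in NF1-MET;sgP53 cells compared with NF1-MET cells by 0.94 on the log2 scale in vehicle (from 188 ± 7.70 to 98.8 ± 1.82 CPM, the count scaled to library size, SD, n = 2) and by 0.89 in capmatinib. Of 14 Schwann and neural crest markers, 8 were under 1 CPM in every library, among them the defining markers *Sox10*, *S100b*, *Mbp*, *Foxd3* and *Cdh19*, and the summed level of the list was 582 to 655 CPM. The others included *Nes*, *Pmp22*, *Twist1*, *Sox9* and *Gap43*, with *Nes* alone at 462 CPM in NF1-MET capmatinib. Of the 9 tested markers of this list, 4 were higher and 2 lower with capmatinib in NF1-MET (from log2 -2.72 for *Gap43* to 2.14 for *Pmp22*) and 3 were higher and 3 lower in NF1-MET;sgP53. Of the 6 mesenchymal markers, 2 were higher and 4 lower in each line. These marker counts stand beside shares of 35.5% higher and 34.7% lower among all genes tested in NF1-MET. In NF1-MET;sgP53 the shares were 34.2% and 33.4%. The part of the marker changes in the enzyme results was not tested. Differences in the makeup of a culture and in RNA per cell cannot be told apart in such bulk data. The 6 mesenchymal markers summed to 6014 to 7173 CPM. Epithelial and endothelial markers summed to at most 0.257 and 0.578 CPM and leukocyte markers to at most 2.12 CPM.

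The lysyl oxidases share a copper-binding site with 4 histidines. Its codons are shown here because they mark what the family has in common and how closely the members resemble each other in sequence, which bears on whether a read can be assigned to a single gene. The sequences run 5′ to 3′ along the GENCODE M21 transcripts, and the capitals mark the histidine codons. That of *Lox* is not printed.
*Loxl1*: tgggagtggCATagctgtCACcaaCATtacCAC
*Loxl2*: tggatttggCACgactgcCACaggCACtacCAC
*Loxl3*: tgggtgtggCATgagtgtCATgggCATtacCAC
*Loxl4*: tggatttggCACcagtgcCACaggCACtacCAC
In this site of 33 bases, *Loxl4* had 31 bases in common with *Loxl2* and 21 with *Loxl1*, whereas *Loxl3* had 25 in common with each. Over whole transcripts, the longest run of bases shared by any of the 45 pairs of enzyme genes was 47, shorter than the 50-base reads. An untrimmed read could therefore not match a pair of these genes exactly, whereas a read shortened by trimming could where runs are that long. The longest were 47 bases between *Loxl2* and *Plod3* and 38 between *Loxl2* and *P4ha2*, and all others were at most 32. Some of the genes also share sequence with genes outside the family. Of the 50-base windows of *Loxl2* (chr14:69609068-69695834, plus strand, mm10), 45.0% also occurred in *Gm21451* or *Gm16867*, and the count of *Loxl2* may miss reads that map to more than 1 place. *Gm21451* had at most 5 counts in any library. *Gm16867* had 35 to 101 counts and was lower with capmatinib, at 2.60 ± 0.136 and 1.56 ± 0.112 CPM in NF1-MET, opposite to *Loxl2*. The corresponding shares were 9.81% for *Plod3*, 8.54% for *Loxl3* and 5.51% for *Plod2*, with exons that overlap *Znhit1*, *Htra2* and *Gm38391* in turn on the other strand, and at most 0.626% for the other 6 genes. Whether counting used the strand was not given in the sources used here.

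To ask how MET inhibition changed the enzyme transcripts, capmatinib was compared with vehicle within each line. All 10 enzyme genes rose with capmatinib in NF1-MET cells, and all 10 also rose after p53 loss, in NF1-MET;sgP53 (edgeR quasi-likelihood F-test, adjusted p at most 1.05e-13 and 1.96e-05). Over all genes tested, 35.5% rose in the former and 34.2% in the latter, while 34.7% and 33.4% fell. The 10 genes were chosen with earlier results of these data known. Their counts beside the shares of all genes, here and below, are therefore descriptions and not tests. The median log2 fold change of the 10 genes was 0.80 and 0.69 in the lines in turn, and that of all genes was within 0.005 of 0 in both. The changes were unequal, from 17.0-fold for *Lox* to 1.30-fold for *Loxl3* in NF1-MET. These comparisons have no library in common.

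**Figure D1:**
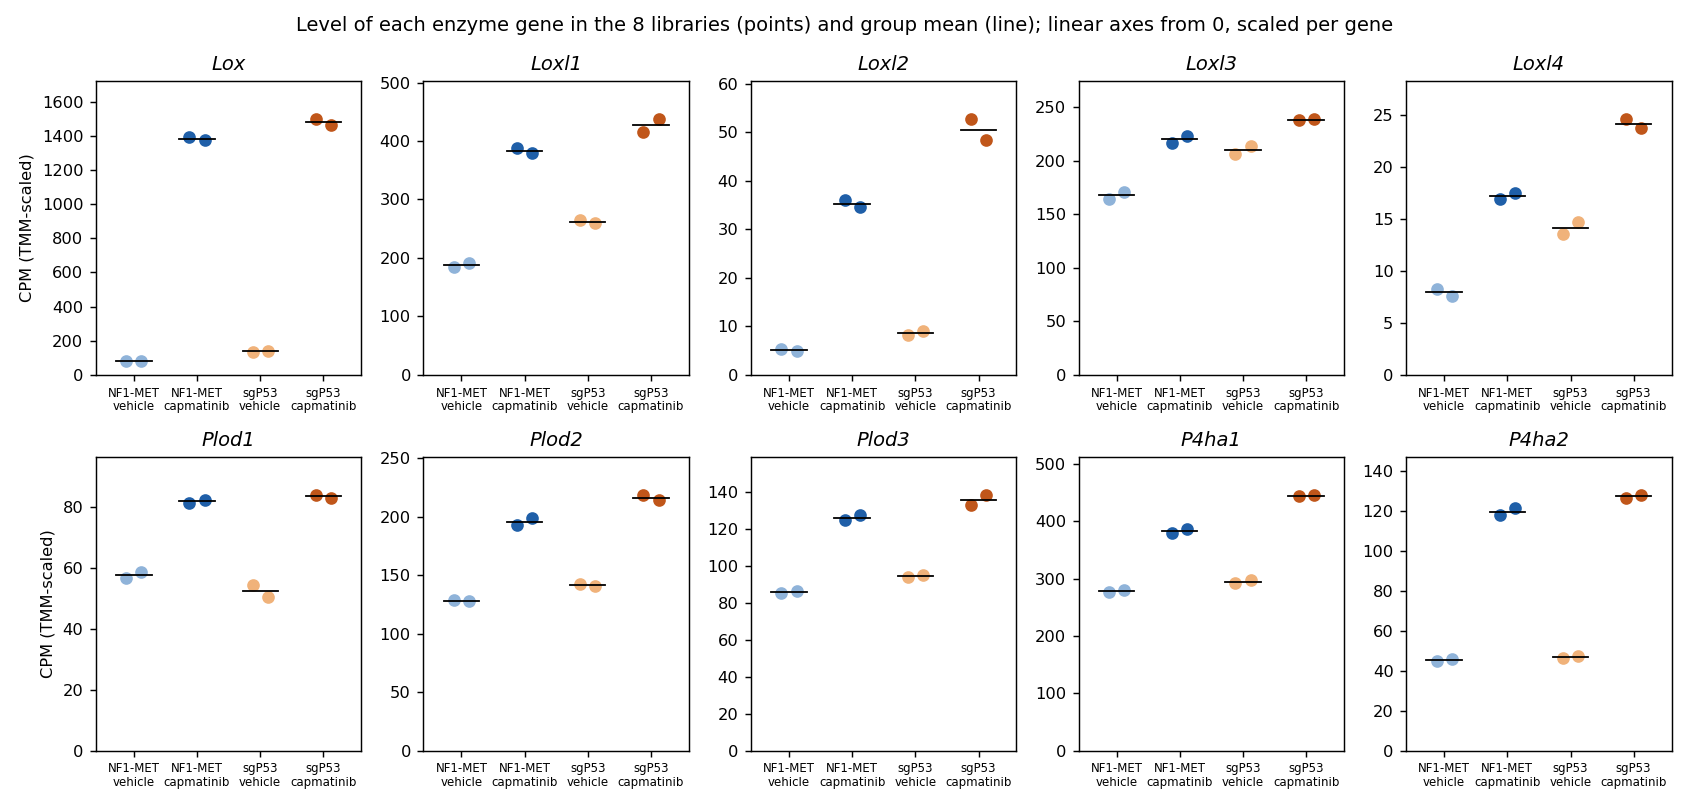
Level of each of the 10 enzyme genes in CPM (TMM-scaled library sizes, linear axes from 0 and scaled per gene) in the 8 libraries. Points are libraries and lines are means of 2; sgP53 stands for NF1-MET;sgP53. For every gene both capmatinib libraries lie above both vehicle libraries of the same line, with *Lox* rising from 80.6 to 1383 CPM in NF1-MET.

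*Lox*, which encodes the founding lysyl oxidase, had the largest response of the 10. Its level was 80.4 and 80.8 CPM in the NF1-MET vehicle libraries and 1391 and 1374 CPM after capmatinib. In NF1-MET;sgP53 it was 136 and 139 CPM in vehicle and 1496 and 1463 CPM after capmatinib. Treated and untreated libraries were thus separated by about an order of magnitude in both lines, and the replicates differed by a few percent. The log2 fold change was 4.08 ± 0.024 (SE; adjusted p = 3.95e-43 by edgeR) in NF1-MET and 3.43 ± 0.0274 (adjusted p = 9.21e-28) in NF1-MET;sgP53. In NF1-MET, 0.793% of all genes tested had a larger log2 rise than *Lox*, and in NF1-MET;sgP53 0.959% did.

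*Loxl2*, a lysyl oxidase with scavenger receptor domains that acts on basement membrane and fibrillar collagen, was the second strongest responder, from a far lower level. It had 5.32 and 4.84 CPM in NF1-MET vehicle and 35.9 and 34.5 CPM in capmatinib, and 8.20 and 9.08 CPM and then 52.6 and 48.4 CPM in NF1-MET;sgP53. No vehicle library overlapped a capmatinib library. The rise was 6.86-fold in NF1-MET (log2 2.78 ± 0.0751) and 5.82-fold in NF1-MET;sgP53 (log2 2.54 ± 0.0646).

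*Loxl1*, which is best known for its part in elastic fibers, roughly doubled in NF1-MET, from 184 and 192 CPM to 387 and 379 CPM. In NF1-MET;sgP53 it went from 264 and 260 CPM to 416 and 437 CPM. Its log2 fold changes were 1.01 ± 0.0255 and 0.70 ± 0.0308. *Loxl4* behaved similarly at a much lower level, with 8.29 and 7.57 CPM against 16.9 and 17.4 CPM in NF1-MET and 13.6 and 14.7 CPM against 24.6 and 23.7 CPM in NF1-MET;sgP53. *Loxl3* changed least of all 10 genes, from 165 and 171 CPM to 217 and 224 CPM in NF1-MET. In NF1-MET;sgP53 it was 206 and 213 CPM in vehicle and 238 and 239 CPM in capmatinib, and the 1.14-fold rise there (adjusted p = 1.96e-05) was no longer called when library totals replaced TMM factors (log2 0.06, adjusted p = 0.653). *Htra2*, which overlaps *Loxl3* on the other strand, went the other way, with log2 fold changes of -0.37 and -0.43.

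The 3 lysyl hydroxylases moved nearly in parallel. *Plod2*, whose product hydroxylates the collagen telopeptides, went from 128 and 128 CPM to 193 and 199 CPM in NF1-MET and from 143 and 141 CPM to 219 and 214 CPM in NF1-MET;sgP53. *Plod1*, whose product acts on the helix, went from 56.6 and 58.6 CPM to 81.4 and 82.5 CPM and from 54.3 and 50.6 CPM to 84.0 and 83.1 CPM. *Plod3*, which encodes the member that also transfers glucose to galactosylated hydroxylysine, went from 85.3 and 86.4 CPM to 125 and 128 CPM and from 94.0 and 95.3 CPM to 133 and 138 CPM. In each case treated and untreated libraries did not overlap. The 6 log2 fold changes lay between 0.49 (*Plod1* in NF1-MET) and 0.67 (*Plod1* in NF1-MET;sgP53), a spread small against the 5 lysyl oxidases, which ran from 0.38 to 4.08 in NF1-MET.

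The alpha subunits of prolyl 4-hydroxylase differed more from each other. *P4ha1*, the major subunit in most tissues, had 276 and 280.3 CPM in NF1-MET vehicle and 380.0 and 387 CPM in capmatinib, and 293 and 297 CPM against 444 and 446 CPM in NF1-MET;sgP53. *P4ha2* started lower, with 45.1 and 46.0 CPM against 118 and 122 CPM in NF1-MET and 46.3 and 47.7 CPM against 127 and 128 CPM in NF1-MET;sgP53. Both genes were higher in every capmatinib library, *P4ha1* by 1.36-fold and 1.51-fold and *P4ha2* by 2.60-fold and 2.71-fold in the lines in turn. The 95% intervals of the log2 fold change, 0.40 to 0.50 for *P4ha1* and 1.31 to 1.45 for *P4ha2* in NF1-MET, did not overlap. *P4ha3*, another alpha subunit that is not among the 10 genes, was 14.3 ± 1.08 CPM in NF1-MET vehicle and 62.0 ± 0.304 CPM in capmatinib, a 4.29-fold rise.

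**Figure D2:**
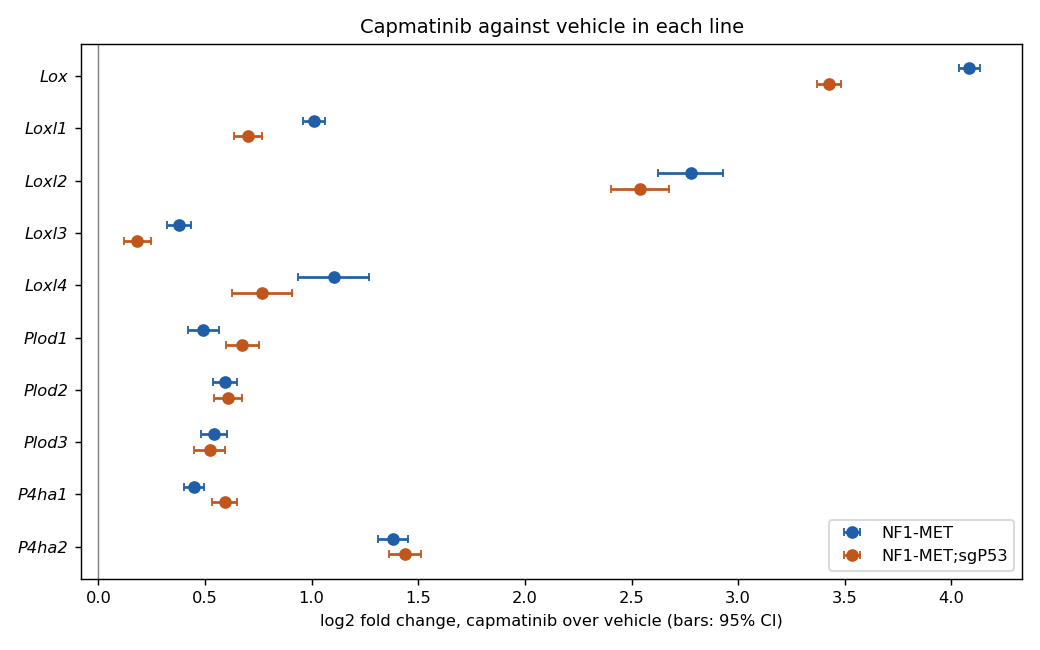
Log2 fold change of each enzyme gene with capmatinib in NF1-MET (blue) and NF1-MET;sgP53 (orange), with 95% confidence intervals from edgeR. All 20 intervals lie above 0; *Lox* is farthest out at 4.08 and 3.43, and the lysyl hydroxylases cluster between 0.49 and 0.67.

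*P4ha1* and *P4ha2* are known targets of the hypoxia-inducible factors (HIF), whose core motif is ACGTG or GCGTG, and the bases before their starts are shown because both genes rose in both lines while the HIF targets listed below moved in both directions. The windows are the 250 bases upstream of the RefSeq start in GRCm38.p6 (the mm10 build), chr10:59323046-59323295 and chr11:54100674-54100923, both on the plus strand and printed 5′ to 3′, with motif matches on either strand in capitals.
*P4ha1*: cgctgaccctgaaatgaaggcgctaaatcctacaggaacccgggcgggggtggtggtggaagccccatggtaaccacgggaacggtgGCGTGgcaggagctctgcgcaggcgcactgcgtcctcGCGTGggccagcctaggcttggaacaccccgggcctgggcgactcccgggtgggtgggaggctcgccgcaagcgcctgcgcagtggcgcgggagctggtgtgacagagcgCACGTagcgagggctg
*P4ha2*: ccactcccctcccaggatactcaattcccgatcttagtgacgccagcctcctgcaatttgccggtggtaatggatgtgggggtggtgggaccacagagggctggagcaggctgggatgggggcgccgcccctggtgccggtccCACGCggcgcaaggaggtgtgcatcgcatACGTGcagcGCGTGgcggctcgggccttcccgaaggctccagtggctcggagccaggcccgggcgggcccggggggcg
Each window held 1 match to ACGTG and 2 to GCGTG. The window of *P4ha2* lies inside the GENCODE M21 gene, which begins at chr11:54100095 and has 15 transcripts, so it precedes a later start. Of 32851 windows of the same length, 16.6% held ACGTG, 28.2% held GCGTG and 38.6% held either. ACGTG read on both strands overlaps itself in the E-box CACGTG, which neither window holds. Such windows were scanned for 5 of the 10 enzyme genes. *Plod3* had 1 ACGTG and 3 GCGTG, and *Plod1* and *Loxl4* had 1 GCGTG each. No window was scanned for *Lox*, *Loxl1*, *Loxl2*, *Loxl3* and *Plod2*, so whether they hold the motif is not known here. A match is a description of letters only.

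Because the genes differ in length, their levels were compared with each other as CPM per kb of merged exons. In NF1-MET vehicle, *P4ha1* was highest at 67.6 ± 0.733 CPM per kb (SD, n = 2), followed by *Loxl1* at 57.0 ± 1.78 and *Loxl3* at 36.4 ± 0.930 CPM per kb. *Plod2* (23.8), *Plod3* (19.0) and *Lox* (16.9 CPM per kb) came next, and *Loxl4* (1.88) and *Loxl2* (0.940 CPM per kb) were last. After capmatinib *Lox* was first, at 289 ± 2.47 CPM per kb in NF1-MET and 310 ± 4.96 CPM per kb in NF1-MET;sgP53, ahead of *Loxl1* (116 and 129) and *P4ha1* (93.3 and 108 CPM per kb). *Lox* thus moved from the sixth place to the first in NF1-MET, and from the fourth in NF1-MET;sgP53, where *Loxl1* led in vehicle at 79.5 ± 0.906 CPM per kb. The libraries of neighbours in this order did not overlap in any group, with the exception of *Plod1* and *P4ha2* in NF1-MET;sgP53 vehicle (7.75 ± 0.393 and 7.54 ± 0.151 CPM per kb).

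The makeup of the lysyl oxidase family shifted with treatment. *Lox* made up 14.9% ± 0.283 (SD, n = 2) of the per-length sum of the 5 genes in NF1-MET vehicle and 62.4% ± 0.0837 in capmatinib, and in NF1-MET;sgP53 it went from 18.1% ± 0.203 to 61.2% ± 0.855. Over the same contrast *Loxl1* went from 50.4% to 25.0% and *Loxl3* from 32.2% to 10.3% in NF1-MET, although both rose in level. The sum of the family was 113 ± 2.59 CPM per kb in NF1-MET vehicle and 464 ± 3.33 CPM per kb in capmatinib. The lysyl hydroxylases kept their proportions more closely, with *Plod2* between 46.4% and 48.6% of their sum in the 4 groups and *Plod1* between 14.1% and 16.6%. Among the 3 alpha subunits, *P4ha1* went from 85.1% ± 0.402 to 70.5% ± 0.137 in NF1-MET and from 83.8% ± 0.461 to 71.9% ± 0.0315 in NF1-MET;sgP53. With the length of the longest transcript in place of merged exons, *P4ha1* took 76.8% and 59.4% in NF1-MET, so the levels of these shares depend on the gene model while their direction did not change.

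**Figure D3:**
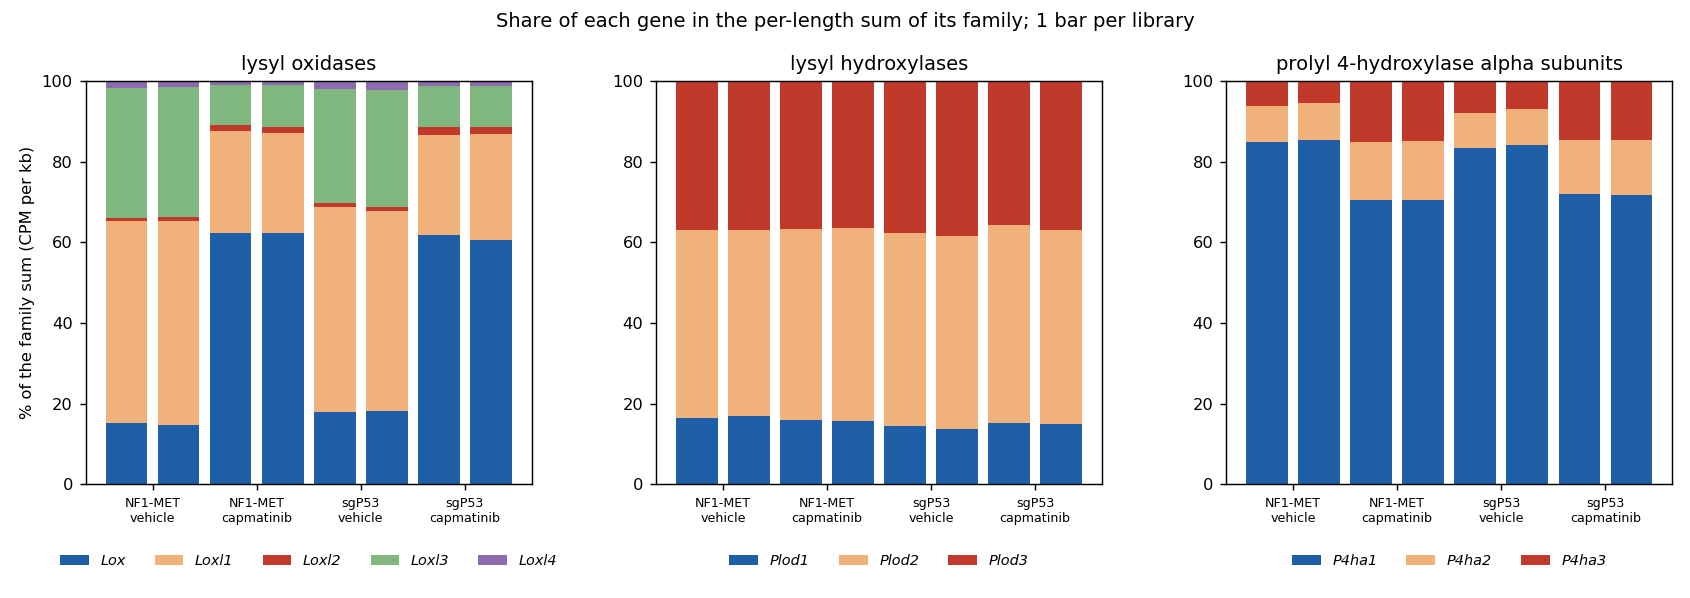
Share of each gene, in percent, in the summed CPM per kb of its family, with 1 bar per library and 2 per group; the third panel includes *P4ha3*. In both lines *Lox* goes from under 19% of the lysyl oxidases in vehicle to over 60% in capmatinib, while the 3 lysyl hydroxylases hold nearly the same shares in all 8 libraries.

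The substrates and partners of these enzymes were described from fixed lists, without a test of the list, and their counts are to be read beside the shares of all genes given above (for NF1-MET 35.5% higher and 34.7% lower, for NF1-MET;sgP53 34.2% and 33.4%). *Col1a1*, the main chain of type I collagen, was 2448 ± 53.0 CPM in NF1-MET vehicle and 15396 ± 179 CPM in capmatinib (log2 2.64 ± 0.0148), and 3280 ± 15.3 and 15180 ± 40.7 CPM in NF1-MET;sgP53. *Col3a1* rose 3.22-fold and 3.14-fold. Of 11 fibrillar collagen genes, 9 were tested, and 7 rose and 1 fell in NF1-MET while 8 rose and 1 fell in NF1-MET;sgP53, with median log2 fold changes of 1.69 and 1.64. *Col11a1*, which helps nucleate fibrils, had the largest rise in NF1-MET (21.3-fold) and *Col5a3* the largest fall (0.64-fold). The summed transcripts of the enzymes can be set against those of these substrates, a ratio that the most abundant chains dominate. The ratio used merged exon lengths only, and its dependence on the gene model was not tested. For *Col1a2* the merged exons hold 12426 bases and the longest transcript 5348. For each 100 CPM per kb of fibrillar collagen transcripts there were 8.25 ± 0.0177 CPM per kb of prolyl 4-hydroxylase alpha subunits in NF1-MET vehicle and 2.999 ± 0.00604 in capmatinib. The same ratio for the lysyl hydroxylases was 5.33 ± 0.00682 and 1.73 ± 0.0133. The lysyl oxidases as a whole went only from 11.7 ± 0.172 to 10.5 ± 0.178, and *Lox* alone rose from 1.75 ± 0.00753 to 6.56 ± 0.120. NF1-MET;sgP53 showed the same directions, with *Lox* at 2.48 and 7.07 for each 100 CPM per kb of fibrillar collagen.

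**Figure D4:**
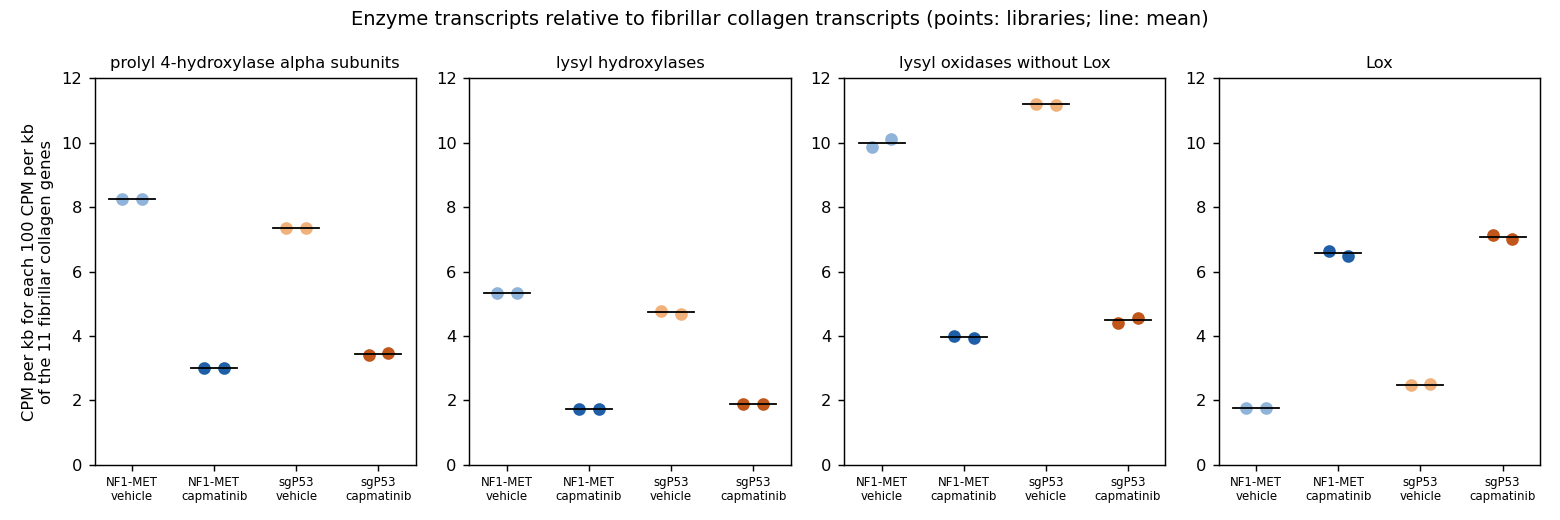
CPM per kb of each enzyme group for each 100 CPM per kb of the 11 fibrillar collagen genes, in the 8 libraries (points) with group means (lines), on linear axes from 0 to 12. With capmatinib the ratio is lower for both hydroxylase groups and for the lysyl oxidases other than *Lox* in both lines, and higher for *Lox*.

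Among 19 collagen modification partners, 18 were tested, and 14 rose and 3 fell in NF1-MET while 15 rose and 1 fell in NF1-MET;sgP53 (median log2 0.65 and 0.55). *P4hb*, the beta subunit that completes prolyl 4-hydroxylase, rose 1.32-fold and 1.38-fold, close to *P4ha1*. *Serpinh1*, the collagen chaperone HSP47, rose 1.86-fold and 1.81-fold, and *Fkbp10*, a prolyl isomerase that acts with *Plod2*, rose 1.72-fold and 1.65-fold. *P3h1* (2.03-fold and 1.95-fold) and *Crtap* (1.40-fold and 1.29-fold), which act together in prolyl 3-hydroxylation, rose in both lines. So did *P3h3* (1.82-fold and 1.67-fold) and *P3h4* (1.62-fold and 1.52-fold), whose products form a complex with that of *Plod1* in lysyl hydroxylation. *P3h2* lay under 1 CPM in every library, with a log2 fold change of 0.87 (adjusted p = 0.125) in NF1-MET and 2.43 (adjusted p = 0.000448) in NF1-MET;sgP53. The former was called without NF1-MET capmatinib replicate 1 (log2 1.30, adjusted p = 0.0301) and ran from 0.01 to 1.45 over the alternatives. *Colgalt1*, which adds galactose to hydroxylysine, rose 1.35-fold and 1.21-fold, the latter not called with library totals (adjusted p = 0.211). *Colgalt2* had 1 count in all 8 libraries. *Hsp90b1*, a general chaperone, had the largest fall of the list in NF1-MET (0.85-fold) and was 0.97-fold in NF1-MET;sgP53 (adjusted p = 0.0982).

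Of 8 procollagen processing genes, 6 were tested, and 4 rose and 2 fell in each line. *Bmp1*, the protease that removes the C-propeptide and also activates pro-LOX, rose 1.52-fold and 1.54-fold. Among called genes that averaged 10 CPM or more in the higher group, *Adamts2*, an N-propeptidase, had the largest rise in NF1-MET (4.77-fold) and its relative *Adamts14* the largest fall (0.51-fold). All 11 tested genes of the elastin and LOX scaffold list of 13 rose in both lines, with median log2 fold changes of 2.05 and 1.73, 10 of them when library totals were used. *Fmod*, a small proteoglycan that binds collagen and LOX, led this list, with 10 and 5 counts in NF1-MET vehicle and 336 and 470 counts in capmatinib. *Eln*, the elastin gene and the other main substrate of the lysyl oxidases, had at most 3 counts in any library and was not tested.

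The lists for copper and hypoxia held called genes in both directions. Of 12 copper supply genes, 10 were tested, and 5 rose and 2 fell in NF1-MET (median log2 0.18) and 4 rose and 2 fell in NF1-MET;sgP53. Library totals changed the NF1-MET counts of this list to 3 higher and 4 lower (median log2 -0.004), but that scale moved all genes downward. Of the 14496 genes tested there, 3508 then rose and 6381 fell, and their median log2 was -0.18. The change in the copper counts is therefore not specific to this list. *Atp7a*, which loads copper onto secreted enzymes including LOX, rose 1.26-fold and 1.33-fold, the former not called with library totals (adjusted p = 0.0674). By the same limit of 10 CPM, *Steap2*, a metalloreductase, had the largest rise in NF1-MET (2.09-fold) and the metallothionein *Mt1* the largest fall (0.42-fold). Of 21 HIF targets other than the enzymes, 20 were tested, and 8 rose and 6 fell in NF1-MET (median log2 0.08) while 11 rose and 4 fell in NF1-MET;sgP53 (median log2 0.15). The counts in NF1-MET were near the shares of all genes. With library totals they were 7 higher and 8 lower there, with a median log2 of -0.11 against -0.18 for all genes. For NF1-MET;sgP53 they were 7 and 4, with a median of 0.02 against -0.12 for all genes. Among called genes that averaged 10 CPM or more in the higher group, *Adm* had the largest rise in NF1-MET (9.77-fold) and *Stc2* the largest fall (0.52-fold).

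To ask how the lines differed, the cells with the *Trp53* guide were compared with their parent within each treatment. In vehicle, all 5 lysyl oxidases were higher in NF1-MET;sgP53, by log2 0.75 ± 0.0316 for *Lox*, 0.46 ± 0.0283 for *Loxl1*, 0.76 ± 0.104 for *Loxl2*, 0.30 ± 0.0294 for *Loxl3* and 0.82 ± 0.0843 for *Loxl4* (SE). The 2 vehicle libraries of each line, given above, did not overlap for any of the 5. The hydroxylases differed by far less, *Plod2* by 0.13 and *Plod3* by 0.12, and *Plod1* was lower in NF1-MET;sgP53 by log2 -0.16 (adjusted p = 0.00723 by edgeR). *P4ha1* (log2 0.07, 95% interval 0.01 to 0.12, adjusted p = 0.0773) and *P4ha2* (log2 0.03, -0.06 to 0.11, adjusted p = 0.691) did not pass the test. *P4ha1* did pass with all 8 libraries in 1 model (log2 0.08, adjusted p = 0.0157), without NF1-MET;sgP53 vehicle replicate 1 (0.0449) and with the replicate number as a block (0.0292). Of the 10 genes, 7 were thus called higher and 1 lower, where 10.9% and 12.3% of all genes tested were called. The 5 lysyl oxidases remained called when library totals were used in place of TMM factors, and the 3 lysyl hydroxylases were not. The log2 differences of the hydroxylases were then -0.10 for *Plod1* (adjusted p = 0.411 by edgeR), 0.18 for *Plod2* (0.058) and 0.18 for *Plod3* (0.0642). The median of all genes was 0.06 there. DESeq2's Wald test called 6 higher and none lower, losing *Plod1* (adjusted p = 0.0739) and *Plod3* (0.0712). The lower call of *Plod1* was also lost without NF1-MET vehicle replicate 2 (0.0831) or NF1-MET;sgP53 vehicle replicate 2 (0.121), and the higher call of *Plod3* without NF1-MET vehicle replicate 1 (0.0700).

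In capmatinib, the difference between the lines was log2 0.10 ± 0.0187 for *Lox*, 0.16 ± 0.0289 for *Loxl1* and 0.11 ± 0.0283 for *Loxl3*, and 0.52 ± 0.0483 for *Loxl2* and 0.49 ± 0.0601 for *Loxl4*. All 5 were again called higher in NF1-MET;sgP53. *P4ha1* was higher there by 0.21 (adjusted p = 1.43e-05), *Plod2* by 0.14 and *Plod3* by 0.11 (adjusted p = 0.0417). *Plod1* (log2 0.03, 95% interval -0.03 to 0.09, adjusted p = 0.624) and *P4ha2* (log2 0.09, 0.02 to 0.15, adjusted p = 0.0804) did not pass the test. The 8 called genes were all higher, where 5.94% of all genes tested were called higher and 6.34% lower. With library totals the log2 difference was 0.21 for *Lox*, 0.27 for *Loxl1*, 0.23 for *Loxl3*, 0.26 for *Plod2* and 0.22 for *Plod3*. The median of all genes was then 0.11. Only *Loxl2*, *Loxl4* and *P4ha1* remained called with library totals, and 7 genes were called without NF1-MET;sgP53 capmatinib replicate 2, *Plod3* being lost (adjusted p = 0.159). Without NF1-MET capmatinib replicate 1, 6 were called, with *Loxl3* (0.131) and *Plod3* (0.219) lost, as both were with no filter (0.0598 and 0.119). *Plod3* was also lost with DESeq2's Wald test (0.166) and without NF1-MET capmatinib replicate 2 (0.0771).

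**Figure D5:**
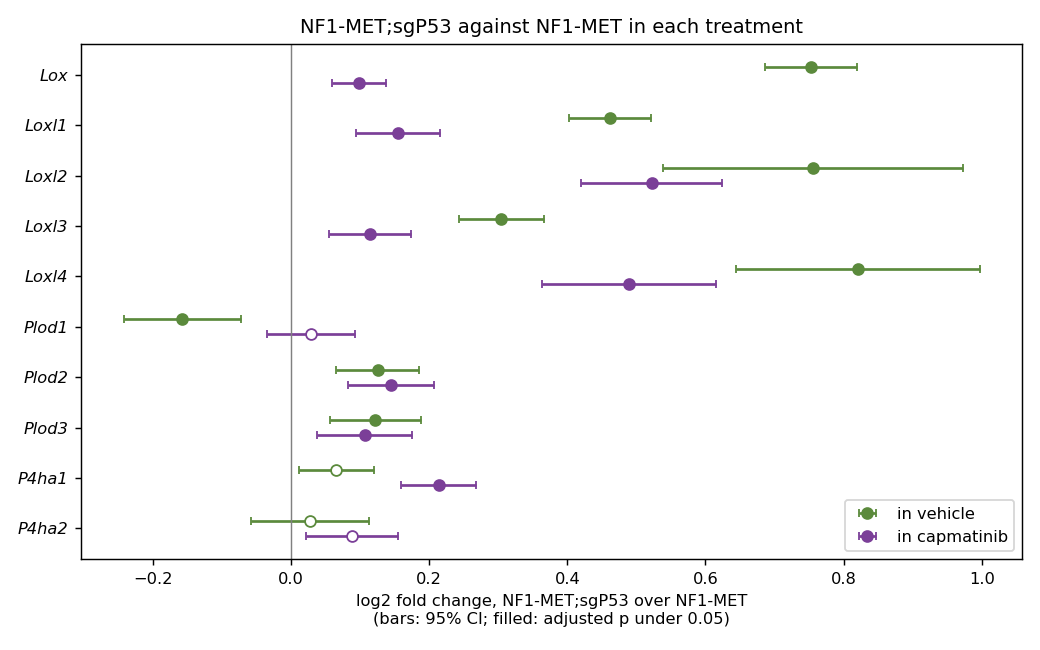
Log2 fold change of NF1-MET;sgP53 over NF1-MET for each enzyme gene in vehicle (green) and in capmatinib (purple), with 95% confidence intervals; filled points have an adjusted p under 0.05. The green points of the 5 lysyl oxidases lie between 0.30 and 0.82 and to the right of the purple ones, whereas the hydroxylases lie between -0.16 and 0.21.

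Whether the lines responded differently to capmatinib was tested as the interaction of line and treatment over the 8 libraries. The response of *Lox* was smaller in NF1-MET;sgP53 by 0.67 on the log2 scale (-0.67 ± 0.0332, adjusted p = 2.80e-13 by edgeR), and those of *Loxl1* (-0.33 ± 0.0409), *Loxl3* (-0.21 ± 0.0413) and *Loxl4* (-0.35 ± 0.103) were smaller as well. For *Loxl2* the interaction was -0.25 (95% interval -0.48 to -0.03, adjusted p = 0.164). *Plod1* (0.17 ± 0.0502, adjusted p = 0.035) and *P4ha1* (0.13 ± 0.0357, adjusted p = 0.021) responded more in NF1-MET;sgP53, and *Plod3* (-0.04, -0.13 to 0.06), *P4ha2* (0.04, -0.06 to 0.14) and *Plod2* (within 0.01 of 0, -0.09 to 0.08) gave no difference that passed the test. Of the 10 genes, 2 were called above 0 and 4 below, where 3.85% and 5.86% of all genes tested were called. This count depended on scale and on single libraries. With library totals only *Lox* was called, and 3 genes were called without NF1-MET vehicle replicate 2 or without NF1-MET capmatinib replicate 1, namely *Lox*, *Loxl1* and *Loxl3*. Without NF1-MET;sgP53 capmatinib replicate 2, 5 were called.

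The end levels can be read beside these tests. After capmatinib *Lox* differed between the lines by 1.07-fold, whereas in vehicle it differed by 1.69-fold, and *Loxl1* by 1.11-fold and 1.38-fold. *Loxl2* and *Loxl4* still differed by 1.44-fold and 1.40-fold after capmatinib.

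The substrates and partners were read in the same comparisons, where the shares of all genes called were 10.9% higher and 12.3% lower in vehicle and 5.94% and 6.34% in capmatinib. In vehicle, 7 of the 9 tested fibrillar collagen genes were higher in NF1-MET;sgP53 and 1 was lower, among them *Col1a1* (1.32-fold) and *Col3a1* (1.19-fold), and 8 of the 11 scaffold genes were higher and 2 lower, or 7 and 0 with library totals and 6 and 1 with DESeq2's Wald test. In capmatinib both lists held 2 higher and 2 lower genes, and *Col1a1* was 0.99-fold (adjusted p = 0.183). Without NF1-MET;sgP53 capmatinib replicate 2 the scaffold genes gave 4 and 2 and the fibrillar collagens 2 and 0, as the latter did with DESeq2's Wald test. The interaction of *Col1a1*, -0.44 ± 0.0201 on the log2 scale, had the sign of that of *Lox* but was not called with library totals (log2 -0.36, adjusted p = 0.0664). Among the collagen modification partners, vehicle gave 5 higher and 2 lower genes, and capmatinib gave 3 and 1. With library totals these became 2 and 0 in vehicle and 0 and 0 in capmatinib. *P4hb* did not pass the test in either treatment (log2 -0.02, 95% interval -0.06 to 0.02, in vehicle and 0.05, 0.01 to 0.08, in capmatinib). Procollagen processing held 1 higher and 1 lower gene in each treatment. The copper supply list held 2 higher and 2 lower genes in vehicle, and 3 higher genes with none lower in capmatinib, where DESeq2's Wald test gave 1 and 0 and the fit without NF1-MET;sgP53 capmatinib replicate 2 gave 2 and 0. In vehicle the Wald test gave 1 and 2. For the HIF targets these counts were 4 and 6 in vehicle, then 9 and 1 in capmatinib. With library totals they were 4 and 3, then 3 and 0, and DESeq2's Wald test gave 5 and 1 in capmatinib. In capmatinib the fibrillar collagens gave 1 and 0 and the scaffold genes 2 and 0 with library totals, and procollagen processing gave none.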

How the data were processed

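Poly(A) RNA from 8 libraries (2 per group) was sequenced by the authors in 50-base pairs. Per the labels and the study's methods, reads were trimmed (Trim Galore 0.4.2), checked (FastQC 0.11.7) and mapped to mm10 with STAR 2.5.2b. The deposited values are raw counts per gene from STAR, neither normalized nor filtered. The filter kept 14497 of 50600 genes, those reaching 10 counts in 2 or more of the 8 libraries and detected in 2 or more libraries of the comparison. edgeR 4.0.16 (R 4.3.3) fitted the counts with TMM factors and tested all genes by the quasi-likelihood F-test, with Benjamini-Hochberg adjustment over all genes and a threshold of 0.05. CPM used TMM-scaled library sizes over all 8 libraries, and lengths came from GENCODE M21 merged exons. The procedure was tested on simulated data. Alternatives were DESeq2 1.42.0 (size factors, Wald test), library totals, edgeR's bias-adjusted test, no filter, a stricter filter (12802 genes), the replicate block, no *Gm42418*, all 8 libraries in 1 model and each library left out. The 10 genes and the lists were chosen with earlier results of these data known. Besides the 10 genes and *Trp53*, genes acting in the same reactions were always named, and from each list the largest called rise and fall in NF1-MET whose higher group averaged 10 CPM or more. The genes that overlap or share sequence with a member were named after their values were seen. At these depths counting error was small for all 10 genes but *Loxl2* and *Loxl4*, which had 193 and 301 counts in their lowest libraries.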

Additional observations from a re-analysis of the deposited data

Results flagged for a closer look

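The response to capmatinib differed between the lines, by the interaction of line and treatment over the 8 libraries (edgeR, adjusted p under the threshold), for 6 of the 10 enzyme genes, where 3.85% of all genes were called above 0 and 5.86% below. On the log2 scale, NF1-MET;sgP53 minus NF1-MET, the difference was -0.67 for *Lox*, -0.33 for *Loxl1*, -0.21 for *Loxl3*, -0.35 for *Loxl4*, 0.17 for *Plod1* and 0.13 for *P4ha1*. With library totals only *Lox* was called. The log2 values of the others were then -0.24 for *Loxl1*, -0.13 for *Loxl3*, -0.27 for *Loxl4*, 0.25 for *Plod1* and 0.21 for *P4ha1*. The median of all genes was 0.05 there. *Loxl4* and *Plod1* were also lost with DESeq2's Wald test (adjusted p = 0.170 and 0.132), *Loxl4* without *Gm42418* (0.0519) and with no filter (0.0597), and *Plod1* with the bias-adjusted test (0.0582), and each was lost in 5 of the 8 fits that left out 1 library, *P4ha1* in 3. Among the named substrates and partners it was -0.44 for *Col1a1*, -0.69 for *Col11a1*, -0.33 for *P4ha3*, -0.17 for *Colgalt1*, 0.19 for *Hsp90b1* and -0.44 for *Adamts2*. It was -0.39 for *Steap2*, 0.43 for *Mt1* and -0.49 for *Adm*. With library totals the calls of *Col1a1* (log2 -0.36, adjusted p = 0.0664), *P4ha3* (-0.25, 0.465), *Colgalt1* (-0.09, 0.879), *Hsp90b1* (0.26, 0.268), *Steap2* (-0.32, 0.114) and *Adm* (-0.42, 0.169) were lost, with the same signs, and those of *Col11a1*, *Adamts2* and *Mt1* were kept. *P4ha3* was also lost without NF1-MET vehicle replicate 2 (adjusted p = 0.0727), and *Adm* without NF1-MET vehicle replicate 1 (0.116) and without NF1-MET;sgP53 vehicle replicate 1 (0.0848).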

How the results depend on the processing

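The rises of the 10 enzyme genes with capmatinib kept their direction under every alternative run, and kept their call with 1 exception, *Loxl3* in NF1-MET;sgP53 with library totals (log2 0.06). Library totals moved the median of all genes by over 0.1 (to log2 -0.18 and -0.12 for capmatinib in NF1-MET and NF1-MET;sgP53, and to 0.11 between the lines in capmatinib). They changed the genes called higher and lower from 5140 and 5029 to 3508 and 6381 in NF1-MET, from 4963 and 4841 to 3260 and 4933 in NF1-MET;sgP53, from 1580 and 1775 to 1280 and 743 between the lines in vehicle, from 860 and 918 to 537 and 129 in capmatinib, and from 558 and 849 to 192 and 123 for the interaction, which gave 873 and 612 without *Gm42418*, 713 and 509 without NF1-MET;sgP53 capmatinib replicate 2 and 746 and 628 with no filter. All 8 libraries in 1 model gave 2051 and 1531 between the lines in vehicle, and no filter gave 515 and 555 in capmatinib. With DESeq2's Wald test 833 and 1100 genes were called between the lines in vehicle 436 and 434 in capmatinib, and 433 and 461 for the interaction. With library totals, the number of enzyme genes called was 5 between the lines in vehicle, 3 in capmatinib and 1 for the interaction. With 1 library left out it was 7 to 9, 6 to 8 and 3 to 6, against 8, 8 and 6 with all libraries. The interaction of *Plod2*, close to 0, changed sign with DESeq2's size factors (0.0131), library totals (0.0785), DESeq2's Wald test (0.0128), the bias-adjusted test (8.22e-05), no filter (0.0251), the stricter filter (0.00521), without *Gm42418* (0.0351) and with single libraries left out (-0.0214 to 0.0484), as did that of *Plod3* with library totals (0.0448). With the longest transcript as length, *Lox* took 14.4%, 61.7% and 17.6% of its family in NF1-MET vehicle, NF1-MET capmatinib and NF1-MET;sgP53 vehicle, and *P4ha1* 76.8%, 59.4%, 75.5% and 61.0% of its family in the 4 groups. The cause of these changes was not tested.

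The difference between replicates 1 and 2 was nearly uncorrelated between groups (r between -0.0536 and 0.102 over the 6 pairs of groups). This gave no sign that the numbers pair the samples but cannot exclude it. The replicate block called 1905 genes higher and 2089 lower between the lines in vehicle, against 1580 and 1775 without it. With the replicate block, 10, 10, 9, 8 and 6 enzyme genes were called in the 5 comparisons, *P4ha1* being added between the lines in vehicle (log2 0.07, adjusted p = 0.0292).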
